A study of Mus musculus with 2 samples.

Results

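The AP-1 and BATF factors examined here are 9 genes of the basic leucine zipper family, namely Fos, Fosb, Fosl2, Jun, Junb, Jund, Batf, Batf3 and Atf3. They were chosen by symbol among the 32285 genes of the count tables, and all 9 were found in both libraries. Their transcripts were followed across gated CD8 T cell states, CD4 conventional T cells, regulatory T cells, NK cells and myeloid cells from mouse tumours, beside Hspa1a, an inducible heat-shock chaperone gene read here as a marker of handling stress. Per the labels, immune cells of tumours in C57BL/6 mice were purified by flow sorting on CD45 and CD90.2, a surface protein of T cells, with 1 library of the genotype labelled Dapl1-KO and 1 of the genotype labelled WT. The study compares wild-type T cells with T cells lacking Dapl1 in tumours. The labels give neither the tumour, the age of the animals, the number pooled, nor the cells in which Dapl1 is deleted, and no other allele or agent is named for either group. With 1 library per genotype there is no replicate, so no test was made. Every interval given is a 95% interval that covers counting error only.

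AP-1 is a family of dimers that bind a short palindromic DNA element. FOS, FOSB and FOSL2 bind DNA with a JUN partner, whereas JUN, JUNB and JUND can also pair with one another. BATF and BATF3 lack a transactivation domain, pair with JUN proteins and, in lymphocytes and dendritic cells, bind beside IRF4 or IRF8. Batf is needed in mice for effector CD8 T cells and for several helper T cell fates, and Batf3 for the cross-presenting class of dendritic cells. ATF3 is a stress-induced member that often acts as a repressor. Fos, Fosb, Jun, Junb and Atf3 are immediate early genes, transcribed without new protein synthesis after antigen receptor signalling, but also after heat, trauma or enzymatic dissociation of a tissue.

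In the GRCm38 annotation (GENCODE M21), Fos lies at chr12:85473890-85477273 on the plus strand and Batf lies farther along the same strand at chr12:85686669-85709087. Batf3, at chr1:191097847-191108945 on the plus strand, and Atf3, at chr1:191170296-191218039 on the minus strand, also share a chromosome. Jun has a single exon at chr4:95049034-95052222 on the minus strand and overlaps the antisense transcript Junos. Junb (chr8:84974484-84978718, minus strand) overlaps Prdx2 on the opposite strand, and Jund (chr8:70698949-70700616, plus strand) overlaps the antisense transcript Gm11175. Fosb lies at chr7:19302696-19310051 on the minus strand and Fosl2 at chr5:32135801-32157842 on the plus strand. The sources used here do not say whether counting was by strand, so reads of Jun, Junb and Jund cannot be separated for certain from their overlapping partners.

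The 250 bases upstream of the RefSeq start (GRCm38.p6) are shown for Fos, Jun and Hspa1a, because the levels of Fos and Jun moved with Hspa1a across the populations described below. Capitals mark every match, on either strand, to an AP-1 site (TGANTCA), the core of a cyclic AMP response element (TGACGT), the variant site TGACATCA, a pair of heat-shock units (GAANNTTC or TTCNNGAA) or a CArG box.
Fos, chr12:85473640-85473889, plus strand: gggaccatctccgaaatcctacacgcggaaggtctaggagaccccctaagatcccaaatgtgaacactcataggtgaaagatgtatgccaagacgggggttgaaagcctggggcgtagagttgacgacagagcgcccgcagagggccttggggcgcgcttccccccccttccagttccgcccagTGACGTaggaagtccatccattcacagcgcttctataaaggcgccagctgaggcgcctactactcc
Jun, chr4:95052223-95052472, minus strand: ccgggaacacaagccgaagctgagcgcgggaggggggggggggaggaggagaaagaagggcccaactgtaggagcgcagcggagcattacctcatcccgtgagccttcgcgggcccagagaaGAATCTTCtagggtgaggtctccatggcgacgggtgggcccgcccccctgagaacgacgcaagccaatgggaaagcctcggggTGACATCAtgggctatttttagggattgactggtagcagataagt
Hspa1a, chr17:34972157-34972406, minus strand: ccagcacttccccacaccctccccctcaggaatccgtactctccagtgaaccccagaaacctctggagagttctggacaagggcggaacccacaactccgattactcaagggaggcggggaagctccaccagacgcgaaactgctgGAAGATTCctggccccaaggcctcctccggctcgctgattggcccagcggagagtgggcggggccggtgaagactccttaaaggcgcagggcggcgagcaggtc
Fos holds the TGACGT core, whose first base lies 66 bases upstream of the start. Jun holds TGACATCA starting 45 bases upstream and GAATCTTC starting 128 bases upstream. Hspa1a holds GAAGATTC starting 104 bases upstream. Among 27025 gene promoters of the same length in the RefSeq table, 6.56% held TGACGT, 3.02% held TGACATCA, 6.78% held GAANNTTC, 7.11% held TTCNNGAA, 6.87% held TGANTCA and 1.40% held a CArG box. Of the other members, Batf held the TGACGT core at 98 bases, Atf3 held its reverse complement ACGTCA at 8 bases and Fosl2 held GAAGTTTC at 244 bases upstream, while Fosb, Junb, Jund and Batf3 held none of these letters in this window. These matches are descriptions of letters and say nothing of binding. They were sought only next to the RefSeq start, which differs from the GENCODE start for some genes. For Jund the RefSeq start is at 70697739, upstream of the gene as located above. The bases just before its GENCODE start were therefore not scanned.

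The Dapl1-KO library held 206322042 UMIs over 19662 barcodes, and the WT library 154408101 UMIs over 16673 barcodes. The same barcode occurred in both libraries 13132 times. The copy with more UMIs was kept where it was at least 2 times larger, and the smaller copy was dropped. After filters, 10098 Dapl1-KO and 8992 WT cells remained, with medians of 8464 and 7356 UMIs. Cells were gated on marker UMIs. CD8 T cells needed CD3 with Cd8a or Cd8b1, CD4 conventional cells CD3 with Cd4, and regulatory T cells CD3 with Foxp3. NK cells needed Ncr1 with Tyrobp. Myeloid cells needed at least 3 genes of a myeloid list that includes Fcer1g, and no Cd3d or Cd3e. A cell could pass both the myeloid gate and an NK or T cell gate, so these populations can share cells. The gates took 69.5% of the Dapl1-KO and 64.3% of the WT cells, among them 5208 Dapl1-KO and 4264 WT CD8 T cells. CD8 T cells were split in order into cycling, granzyme D to G, PD-1 TIM-3 (Pdcd1 and Havcr2), progenitor-like (Pdcd1 and Tcf7, no Havcr2), PD-1 single (Pdcd1 alone of these), naive-like (no Pdcd1 or Havcr2, with Lef1 or Tcf7 among other required markers) and effector cells without PD-1 (Ly6c2 or Gzma). The T cell markers Trac, Trbc2, Cd247 and Lck, unused by the gates, summed to 2057 CPM in Dapl1-KO and 1709 CPM in WT CD8 T cells, against 162 CPM in Dapl1-KO and 263 CPM in WT monocyte or macrophage-like cells. Dapl1 itself was read at 29.7 CPM (a UMI count scaled to the total UMIs of the population) in Dapl1-KO and 40.9 CPM in WT CD8 T cells, and at 182 CPM in Dapl1-KO and 180.1 CPM in WT naive-like CD8 T cells. Nothing in the labels places the deletion, and 3′ tags outside it check nothing, so every direction between genotypes below rests on the labels alone. Of CD8 T cells, 3901 in the Dapl1-KO library had a Y-linked UMI and no Xist and 2 had Xist and no Y-linked UMI, against 629 and 3037 in the WT library, so genotype cannot be told apart from the sex of the animals in most cells. As gauges of free RNA, C1qb, a macrophage gene no gate uses, was at 2.29 CPM in Dapl1-KO and 1.47 CPM in WT CD8 T cells, against 657 CPM in Dapl1-KO and 1028 CPM in WT monocyte or macrophage-like cells. Apoe, which other cells also express, was at 40.7 CPM in Dapl1-KO and 29.6 CPM in WT CD8 T cells, against 549 CPM in Dapl1-KO and 1714 CPM in WT monocyte or macrophage-like cells.

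In CD8 T cells Hspa1a separated the 2 libraries more than any member of the family did. It stood at 114 CPM in the Dapl1-KO library and 601 CPM in the WT library. It was lower in Dapl1-KO than in WT in all 12 populations compared. The widest gap was in naive-like CD4 cells, at 261 CPM in Dapl1-KO against 2574 CPM in WT, and the narrowest in PD-1 TIM-3 CD8 T cells, at 124 CPM in Dapl1-KO against 234 CPM in WT. Its near-identical neighbour Hspa1b, with which reads may be split, stood at 78.5 CPM in Dapl1-KO and 366 CPM in WT CD8 T cells. Of CD8 T cells, 79.4% in the Dapl1-KO and 47.7% in the WT library held no Hspa1a UMI, at median depths of 10787 and 10217 UMIs.

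**Figure D1:**
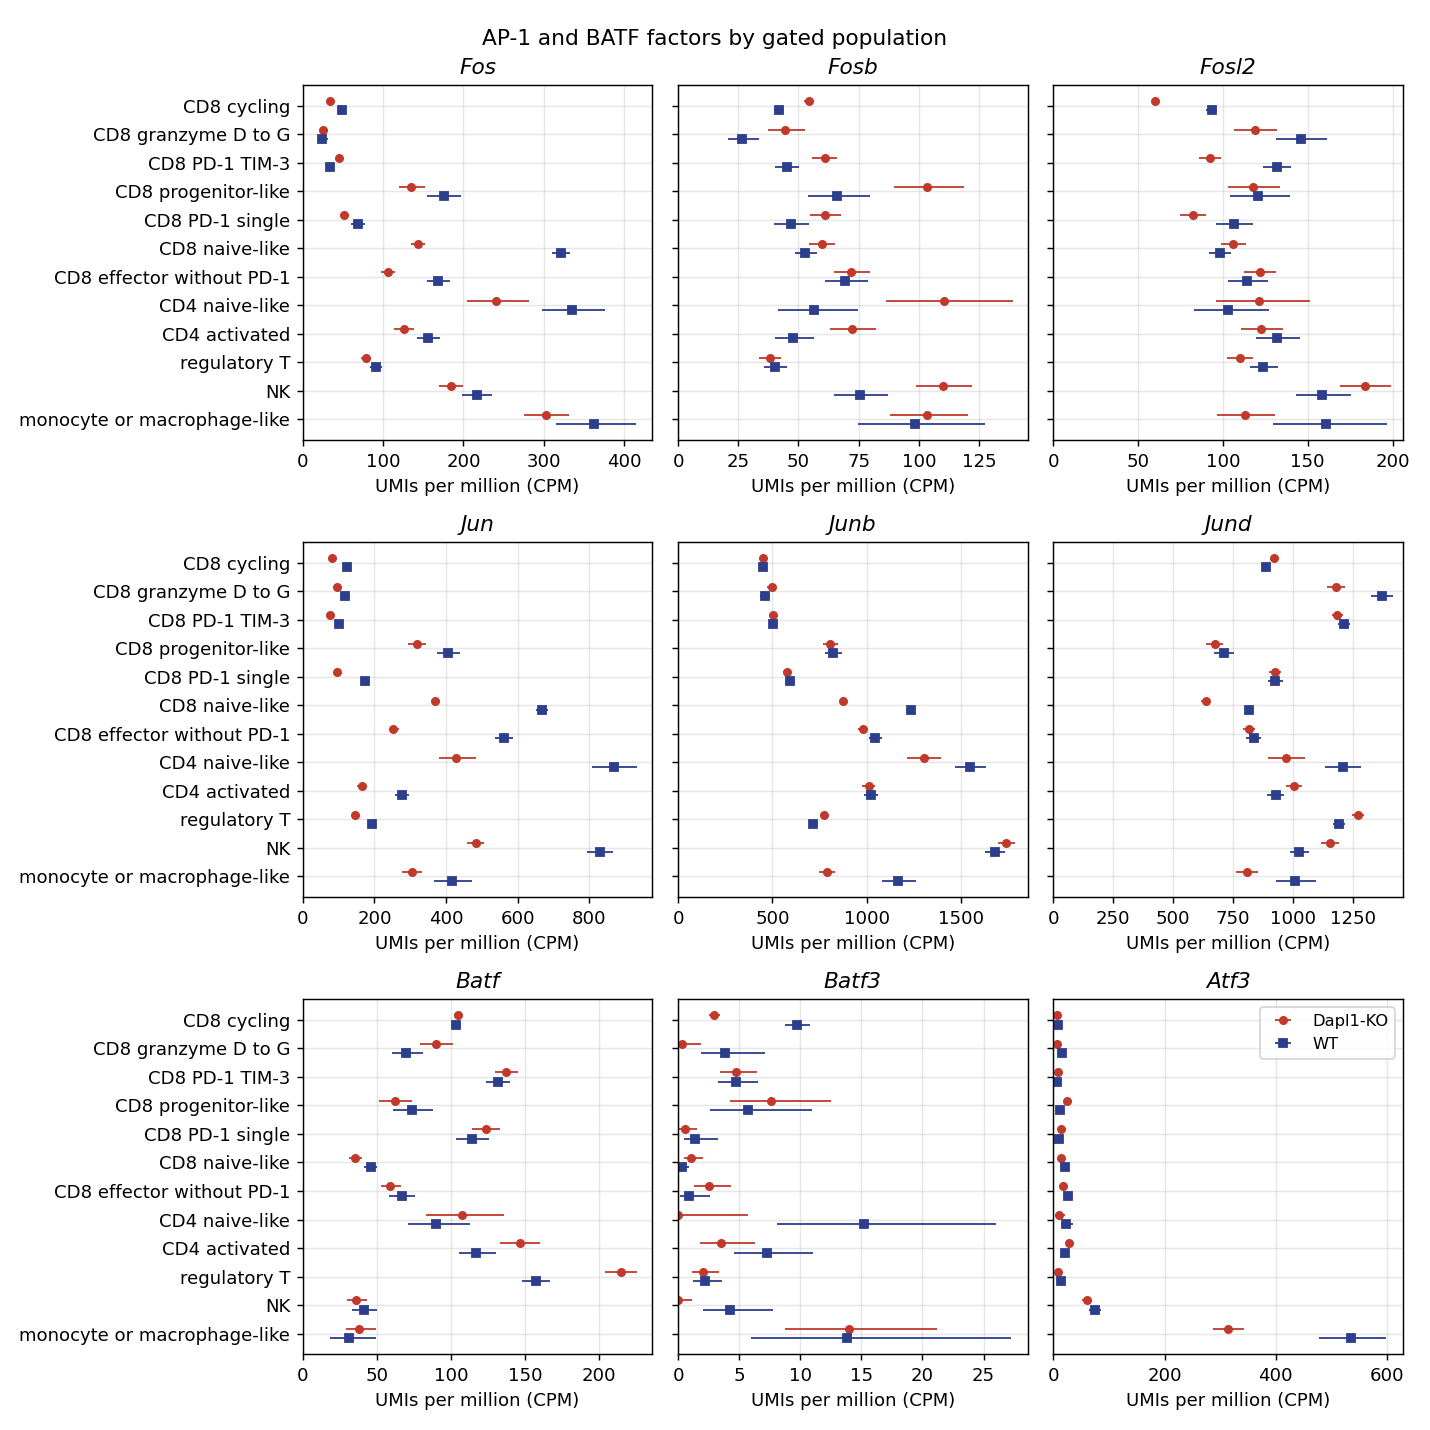
Level of each factor in 12 gated populations, in CPM of the population's UMIs (x axis, linear from 0), with Dapl1-KO as red circles above WT as blue squares and bars for 95% Poisson intervals of counting error. Jun is highest in NK and naive-like CD4 cells. Fos is highest in monocyte or macrophage-like cells, with intervals that overlap those of naive-like CD4 cells. Batf is highest in regulatory T cells. Atf3 reaches 313 CPM in Dapl1-KO and 536 CPM in WT monocyte or macrophage-like cells.

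Among the FOS genes, Fos had the steepest gradient over populations. It was lowest in CD8 T cells with many granzyme D to G transcripts, at 24.8 CPM in Dapl1-KO and 24.2 CPM in WT. The highest level was in monocyte or macrophage-like cells, at 303 CPM in Dapl1-KO and 363 CPM in WT. The range was 12.2-fold in the Dapl1-KO and 15.0-fold in the WT library. Naive-like CD4 cells came next, at 241 CPM in Dapl1-KO and 335 CPM in WT. Their interval overlapped that of the highest population in both libraries. The order of the 12 populations was nearly the same in both libraries, with a Spearman correlation of 0.98, given as a description over populations that share a library. Of the 11 pairs of neighbours in that order, 6 had intervals that did not overlap in each library. Within CD8 T cells, naive-like cells had 143 CPM in Dapl1-KO and 321 CPM in WT, while PD-1 TIM-3 cells had 45.0 CPM in Dapl1-KO and 33.4 CPM in WT. Naive-like cells were therefore high and PD-1 TIM-3 cells low in both libraries.

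Fosb varied less, by 2.90-fold in the Dapl1-KO and 3.71-fold in the WT library. It was lowest in regulatory T cells in Dapl1-KO, at 38.1 CPM, and in granzyme D to G cells in WT, at 26.5 CPM. NK cells had 109.9 CPM in Dapl1-KO and 75.4 CPM in WT. Only 1 of 11 neighbouring pairs in its order stood apart in either library, while populations farther apart in the order did differ beyond counting error. NK cells had more than CD8 T cells, by 0.91 on the log2 scale in the Dapl1-KO (interval 0.75 to 1.07) and 0.72 in the WT library (0.49 to 0.94).

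Fosl2, which encodes the FOS-related protein FRA-2, was flattest in the WT library, where it varied by 1.72-fold. NK cells led in Dapl1-KO at 184 CPM and had 158 CPM in WT. Cycling CD8 T cells were lowest in both, at 60.2 CPM in Dapl1-KO and 93.3 CPM in WT. The order of populations was shared only loosely between libraries, with a Spearman correlation of 0.50 over 12 populations.

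Jun was lowest in PD-1 TIM-3 CD8 T cells, at 76.5 CPM in Dapl1-KO and 101 CPM in WT. Its highest level was in NK cells in Dapl1-KO, at 483 CPM, and in naive-like CD4 cells in WT, at 869 CPM. Those 2 populations had the highest levels in both libraries, since naive-like CD4 cells had 429 CPM in Dapl1-KO and NK cells 829 CPM in WT. Progenitor-like CD8 T cells had 318 CPM in Dapl1-KO and 406 CPM in WT, against 96.4 CPM in Dapl1-KO and 175 CPM in WT for cells with Pdcd1 alone. In cells thinned to 3000 UMIs, a Jun UMI was found in 53.2% of Dapl1-KO and 67.0% of WT naive-like cells, and in 16.9% of Dapl1-KO and 18.4% of WT PD-1 TIM-3 cells. Before thinning these shares were 78.4% in Dapl1-KO and 84.7% in WT naive-like cells, and 39.0% in Dapl1-KO and 43.8% in WT PD-1 TIM-3 cells. As a gauge of free RNA at the same depth, a C1qb UMI was found in 0.404% of Dapl1-KO and 0.805% of WT naive-like cells, and in 1.78% of Dapl1-KO and 0.542% of WT PD-1 TIM-3 cells.

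Junb was highest in NK cells, at 1739 CPM in Dapl1-KO and 1681 CPM in WT, and the next population was naive-like CD4 cells, at 1303 CPM in Dapl1-KO and 1548 CPM in WT. It was lowest in cycling CD8 T cells, at 450.2 CPM in Dapl1-KO and 451 CPM in WT. Jund ran the other way within CD8 T cells. It stood at 636 CPM in Dapl1-KO and 816 CPM in WT naive-like cells, and at 1185 CPM in Dapl1-KO and 1212 CPM in WT PD-1 TIM-3 cells. Over all populations Jund varied by only 2.0-fold in Dapl1-KO and 1.93-fold in WT.

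Batf was highest in regulatory T cells, at 215 CPM in Dapl1-KO and 158 CPM in WT. Activated CD4 cells followed in Dapl1-KO at 147 CPM, with 117 CPM in WT, and PD-1 TIM-3 CD8 T cells had 138 CPM in Dapl1-KO and 132 CPM in WT. The regulatory T markers Il2ra, Ctla4, Ikzf2 and Tnfrsf18 summed to 1767 CPM in Dapl1-KO and 1477 CPM in WT activated CD4 cells. In regulatory T cells they summed to 3491 CPM in Dapl1-KO and 2855 CPM in WT. Their part in the Batf level of activated CD4 cells was not tested. Naive-like CD8 T cells had 35.5 CPM in Dapl1-KO and 45.7 CPM in WT, and NK cells 36.1 CPM in Dapl1-KO and 41.3 CPM in WT. The lowest level in WT was in monocyte or macrophage-like cells, at 31.1 CPM, where Dapl1-KO had 38.2 CPM. Among CD8 T cells, PD-1 TIM-3 cells were thus high in Batf and low in Fos and Jun, whereas granzyme D to G cells, the lowest in Fos, had Batf at 89.9 CPM in Dapl1-KO and 70.0 CPM in WT, near progenitor-like cells in WT. The Batf gradient of 6.05-fold in Dapl1-KO and 5.07-fold in WT was shared between libraries, with a Spearman correlation of 0.95.

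Batf3 stayed below the 20 CPM minimum in all 12 populations, with its highest values of 14.0 CPM in Dapl1-KO monocyte or macrophage-like cells and 15.2 CPM in WT naive-like CD4 cells. The dendritic-like gate held only 8 Dapl1-KO and 2 WT cells, and there Batf3 stood at 206 CPM in Dapl1-KO (interval 124 to 323) and 358 CPM in WT (interval 116 to 835). Those few cells were left out of the comparisons. Atf3 was concentrated in myeloid cells, as the plot of levels by population shows, and was next highest in NK cells, at 59.9 CPM in Dapl1-KO and 74.2 CPM in WT. Cells were sorted on CD45 and CD90.2, so the few myeloid cells here need not stand for those of the tumour. In cells thinned to 3000 UMIs an Atf3 UMI was found in 43.2% of Dapl1-KO and 46.8% of WT monocyte or macrophage-like cells, in 12.4% of Dapl1-KO and 13.9% of WT NK cells, and in 2.63% of Dapl1-KO and 2.77% of WT CD8 T cells. A C1qb UMI was found at that depth in 31.8% of Dapl1-KO and 36.2% of WT monocyte or macrophage-like cells, in 0.485% of Dapl1-KO and 0.697% of WT NK cells, and in 0.968% of Dapl1-KO and 0.577% of WT CD8 T cells. Before thinning the Atf3 shares were 59.3% in Dapl1-KO and 63.3% in WT monocyte or macrophage-like cells, 21.2% in Dapl1-KO and 24.5% in WT NK cells, and 7.60% in Dapl1-KO and 8.51% in WT CD8 T cells.

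The exhausted-like state, gated on Pdcd1 (PD-1) and Havcr2 (TIM-3), was then set against naive-like CD8 T cells within each library. A gene counted as measured at 20 CPM or more in either state and as past the limit at a log2 difference of 0.32 or more. Of 7 members measured in both libraries, Batf and Jund were past the limit upward in both libraries and Fos, Jun and Junb downward. In the background, 47.9% of 4367 genes were past the limit upward and 13.7% downward in both libraries. Batf was higher by 1.95 on the log2 scale in the Dapl1-KO and 1.53 in the WT library. Jun differed by a log2 of −2.27 (interval −2.40 to −2.15) in the Dapl1-KO and −2.72 (−2.83 to −2.61) in the WT library. Fos differed by −1.67 in the Dapl1-KO and −3.26 in the WT library, and Junb by −0.80 in the Dapl1-KO and −1.30 in the WT library. Jund differed by 0.90 in the Dapl1-KO and 0.57 in the WT library. The median of all genes was itself shifted by 0.39 in Dapl1-KO and 0.37 in WT. Relative to that median, 1 member (Batf) was past the limit upward in both libraries and 4 (Fos, Fosb, Jun and Junb) downward, so the Jund call was lost. Fosl2 was −0.20 in the Dapl1-KO and 0.42 in the WT library, so its direction differed between libraries. Hspa1a was lower in the PD-1 TIM-3 state as well, by −0.66 in the Dapl1-KO and −2.88 in the WT library, and its part in these differences was not tested. Among cells without a Hspa1a UMI, 2 members were past the limit upward and 3 downward. With both copies of shared barcodes dropped, which left 106 cells in the smallest group, 1 was past it upward and 3 downward. The share of all genes is not given for these settings or relative to the median, so those counts have no background beside them.

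**Figure D2:**
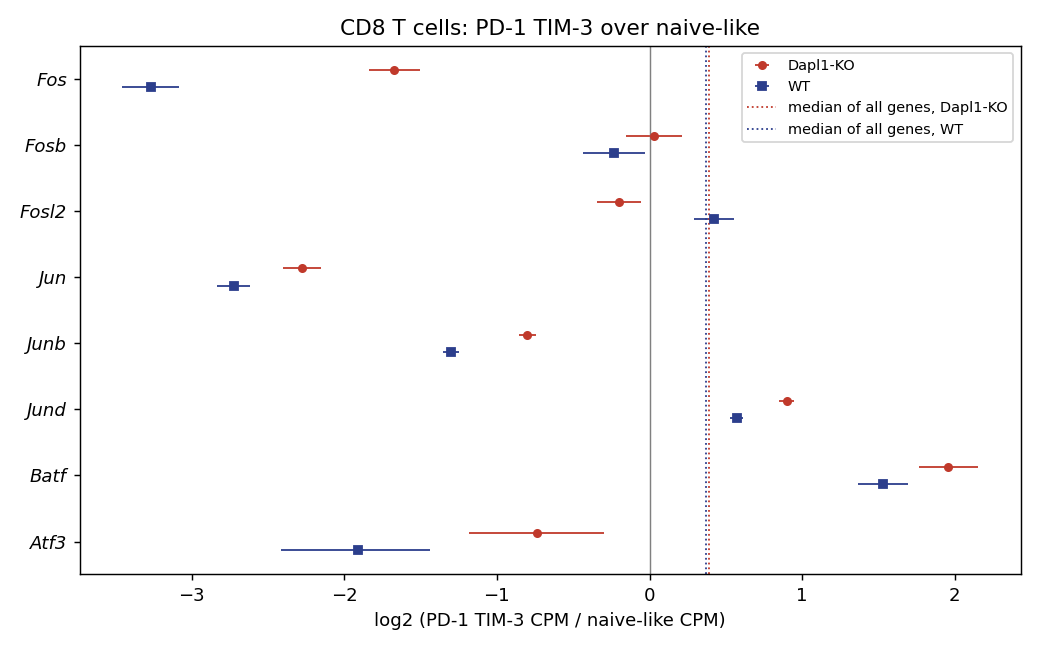
Log2 ratio of CPM in PD-1 TIM-3 over naive-like CD8 T cells for 8 members (x axis), in the Dapl1-KO library as red circles above the WT library as blue squares, with 95% counting intervals. Dotted lines mark the median of all genes at 0.39 in Dapl1-KO and 0.37 in WT; Fos, Jun and Junb lie to the left in both libraries and Batf to the right.

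Against PD-1 TIM-3 cells, progenitor-like cells had more Jun, by 2.05 on the log2 scale in the Dapl1-KO and 2.0 in the WT library. They had more Fos, by 1.59 in the Dapl1-KO and 2.39 in the WT library, and less Batf, by −1.15 in the Dapl1-KO and −0.84 in the WT library. Jund was also lower, by −0.82 in the Dapl1-KO and −0.77 in the WT library. In granzyme D to G cells Jun was also lower, at −1.95 in the Dapl1-KO and −2.52 in the WT library relative to naive-like cells.

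Between genotypes, Fos and Jun differed most in CD8 T cells among the members at 20 CPM or more. Jun had 127 CPM in Dapl1-KO and 244 CPM in WT, a log2 ratio of −0.95 (interval −0.98 to −0.91). Fos had 52.8 CPM in Dapl1-KO and 102 CPM in WT, a log2 ratio of −0.95 (−1.01 to −0.90). Fosl2 had 76.8 CPM in Dapl1-KO and 104 CPM in WT, with −0.44. Fosb went the other way, with 58.3 CPM in Dapl1-KO and 45.8 CPM in WT, a log2 ratio of 0.35 (0.28 to 0.41). Junb, at 546 CPM in Dapl1-KO and 640.1 CPM in WT, Jund, at 923 CPM in Dapl1-KO and 939.7 CPM in WT, and Batf, at 99.2 CPM in Dapl1-KO and 95.4 CPM in WT, were within the limit. So 1 of 7 measured members was higher and 3 were lower in Dapl1-KO, against 14.5% of 4622 genes higher and 6.84% lower. Batf3 and Atf3 were under the minimum. Batf3 had 2.80 CPM in Dapl1-KO and 6.26 CPM in WT, a log2 ratio of −1.16 (interval −1.39 to −0.93), and Atf3 had 9.61 CPM in Dapl1-KO and 11.7 CPM in WT.

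Some of these calls moved with the mix of cells. Naive-like cells, high in Fos and Jun, were 745 of 5208 CD8 T cells in Dapl1-KO and 1123 of 4264 in WT. Over the 7 CD8 states the Fos ratio ran from −1.16 in naive-like to 0.43 in PD-1 TIM-3 cells, with −0.51 in cycling cells. The ratio of the whole gate is therefore not that of each state. Cycling cells supplied most UMIs of the CD8 gate, 55215701 of 88974096 in Dapl1-KO and 34945006 of 65984007 in WT. With them left out the log2 ratio was −0.16 for Fosl2, −0.97 for Fos, −0.94 for Jun and 0.37 for Fosb. With both copies of shared barcodes dropped it was 0.02 for Fosl2, −1.36 for Fos, −1.17 for Jun and 0.30 for Fosb, so the Fosl2 call was lost both ways and the Fosb call in the second. Over the 16 settings, Fos was past the limit in 16, Jun in 15, and Fosb and Fosl2 in 12 each. Melanocytic tumour transcripts (Pmel, Mlana, Tyrp1 and Dct) summed to 601 CPM in Dapl1-KO and 199 CPM in WT CD8 T cells, and 25 Dapl1-KO and 13 WT cells held 98.6% of them in Dapl1-KO and 98.4% in WT. Without those cells the ratios were −0.43 for Fosl2, −0.92 for Fos, −0.94 for Jun and 0.34 for Fosb.

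**Figure D3:**
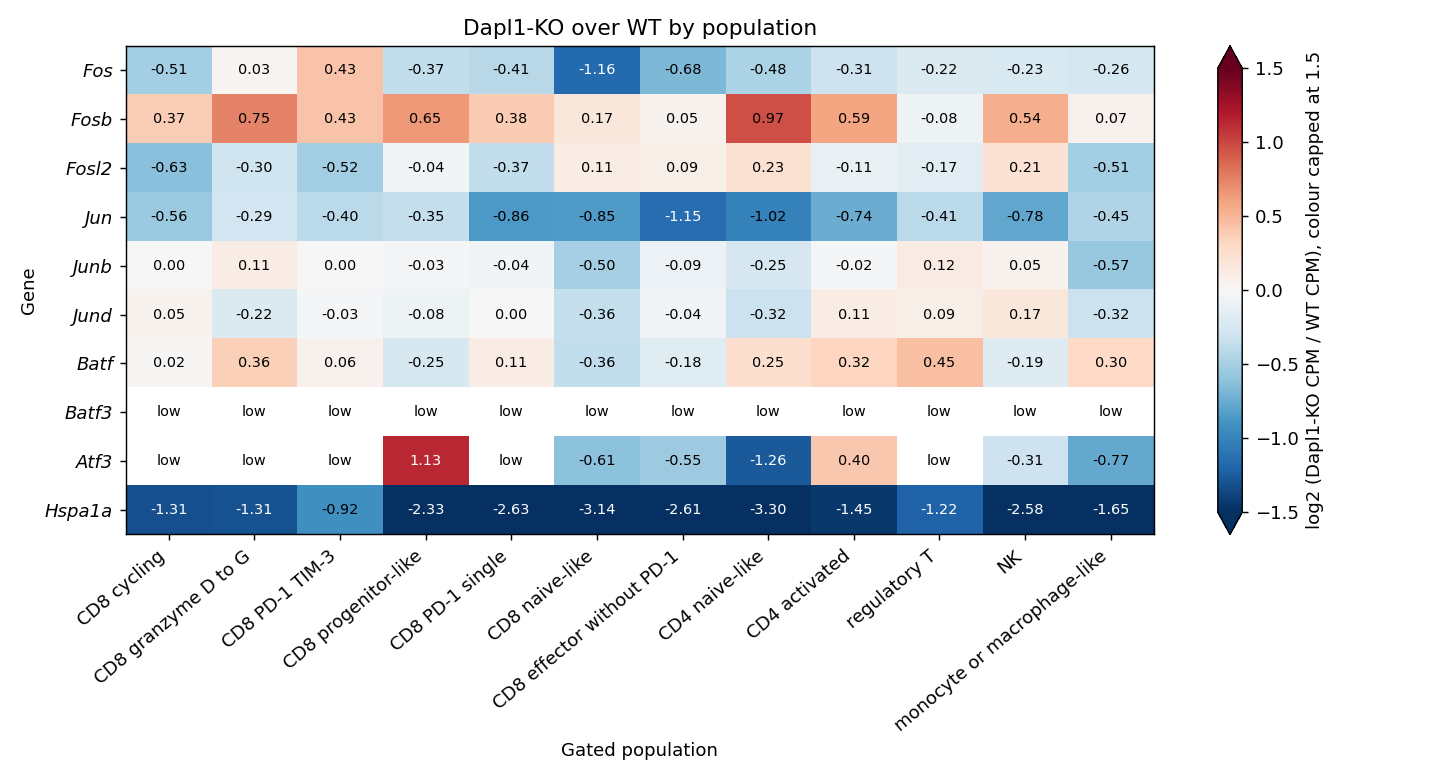
Log2 ratio of Dapl1-KO over WT CPM for the 9 members and Hspa1a (rows) in 12 gated populations (columns), with red for higher and blue for lower in Dapl1-KO, colour capped at 1.5, and "low" where both libraries were under 20 CPM. The Jun and Hspa1a rows are blue throughout, and the Fosb row is above 0 in 11 of 12 populations.

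Across the 12 populations Jun was lower in Dapl1-KO in every one and past the limit in 11, from −1.15 in effector cells without PD-1 to −0.29 in granzyme D to G cells. Fosb was higher in Dapl1-KO in 11 populations and past the limit in 8, and it was −0.08 in regulatory T cells. The highest Fosb ratio, 0.97 in naive-like CD4 cells, rested on 110.4 CPM in Dapl1-KO and 56.3 CPM in WT. Fos was lower in 10 populations, past the limit in 6, and its ratio was past the limit upward in PD-1 TIM-3 cells. In that state, Fos and Fosb were higher and Fosl2 and Jun lower in Dapl1-KO, which made 2 of 7 measured members higher against 15.9% of genes and 2 lower against 8.91%. Fosl2 had 92.2 CPM in Dapl1-KO and 132 CPM in WT there.

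Naive-like CD8 T cells carried the broadest difference between genotypes. Of 8 measured members, 0 were higher and 6 lower in Dapl1-KO, against 22.6% of 4003 genes higher and 15.1% lower. Fos differed by −1.16, Jun by −0.85 and Junb by −0.50, with Junb at 874 CPM in Dapl1-KO and 1233 CPM in WT. Jund and Batf were each −0.36. Atf3 was −0.61, but it reached the minimum only through WT, so its place in the count of 6 is no support. Hspa1a differed by −3.14 in the same cells, at 196 CPM in Dapl1-KO and 1723 CPM in WT. In naive-like cells without a Hspa1a UMI, Fos had 109 CPM in Dapl1-KO and 266 CPM in WT, a log2 ratio of −1.29, so the Fos difference was as large there. Batf was −0.73, Junb −0.46, Jun −0.40 and Jund −0.30 in those cells.

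In CD4 conventional T cells, Fosb and Batf were higher and Fos and Jun lower in Dapl1-KO, making 2 of 8 measured members higher against 15.5% of 4776 genes and 2 lower against 11.2%. Jun had 211 CPM in Dapl1-KO and 407 CPM in WT, and Fosb 78.8 CPM in Dapl1-KO and 49.7 CPM in WT. Batf had 139.8 CPM in Dapl1-KO and 111 CPM in WT, a ratio of 0.33 that lies at the limit. In regulatory T cells, Batf was higher at 0.45 and Jun lower at −0.41, which is 1 of 7 members higher against 6.36% of 4903 genes and 1 lower against 14.1%. Both fell within the limit among regulatory T cells without a Hspa1a UMI, where Batf was 0.22 and Jun −0.20. In NK cells, Fosb was higher at 0.54 and Jun lower at −0.78, which is 1 of 8 members higher against 14.0% of 4591 genes and 1 lower against 12.4%. With both copies of shared barcodes dropped, 46 regulatory T cells and 47 NK cells remained in the smaller library. Batf was then 0.12 and Jun −0.98 in regulatory T cells, so the Batf call was lost, and Fosb passed the limit there at 0.72. In NK cells Jun was then 0.13, so its call was lost and its direction turned, while Fosb was 1.57. In CD4 conventional T cells Jun was −1.33, Fos −0.43, Fosb 1.34 and Batf 0.98, in the directions given above. Among CD4 conventional T cells without a Hspa1a UMI, however, Fos was 0.14 and Jun 0.20, so both directions turned, and Batf was 0.26, within the limit, while Fosb was 1.21. Monocyte or macrophage-like cells, with 150 Dapl1-KO and 49 WT cells, had Atf3 at −0.77, Junb at −0.57 and Jun at −0.45. Markers of other cells differed in the same gate: 4 macrophage markers summed to 1391 CPM in Dapl1-KO and 2896 CPM in WT, 4 dendritic markers to 4591 CPM in Dapl1-KO and 2881 CPM in WT, and 4 melanocytic markers to 395 CPM in Dapl1-KO and 8.64 CPM in WT, where Pmel and Tyrp1 were at 0. In that gate the NK markers Klrb1c, Eomes, Klra8 and Prf1 summed to 316 CPM in Dapl1-KO and 353 CPM in WT. In NK cells they summed to 990 CPM in Dapl1-KO and 974 CPM in WT. The part of all these markers in the levels and differences of the myeloid gate was not tested.

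Hspa1a ran with part of the family inside each library too. CD8 T cells with 5 or more Hspa1a UMIs were set against cells with none, in which the median depths were 11254 and 10787 UMIs in Dapl1-KO and 8491 and 10217 UMIs in WT. Of 8 measured members, Fos, Fosb, Jun and Atf3 were higher in both libraries and 0 were lower, against 3.13% of 4340 genes higher and 3.02% lower in both. Jun was higher by 1.74 in the Dapl1-KO and 2.24 in the WT library. Fos was higher by 1.67 in the Dapl1-KO and 1.95 in the WT library, and Fosb by 0.65 in the Dapl1-KO and 0.83 in the WT library. Atf3 had 26.4 against 6.78 CPM in Dapl1-KO and 23.2 against 5.75 CPM in WT, so it reached the minimum only through the cells with Hspa1a and had to differ; its place in the count of 4 is no support. Junb was higher by 0.21 in the Dapl1-KO, within the limit, and by 0.75 in the WT library. With both copies of shared barcodes dropped, 4 members were higher and 2 lower in both libraries. The share of all genes in that setting is not given, so these counts have no background beside them. By number of Hspa1a UMIs (0, 1 to 4, 5 to 19, 20 or more), Jun stood at 102, 136, 317 and 387 CPM in Dapl1-KO and at 118, 171, 382 and 725 CPM in WT. It was lower in Dapl1-KO in each of the 4 groups. Fosb stood at 54.5, 63.0, 87.5 and 81.4 CPM in Dapl1-KO and at 37.6, 40.6, 62.7 and 70.6 CPM in WT, and was higher in Dapl1-KO in each. The cells are not replicates, and the gate mixes states that differ in Hspa1a.

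**Figure D4:**
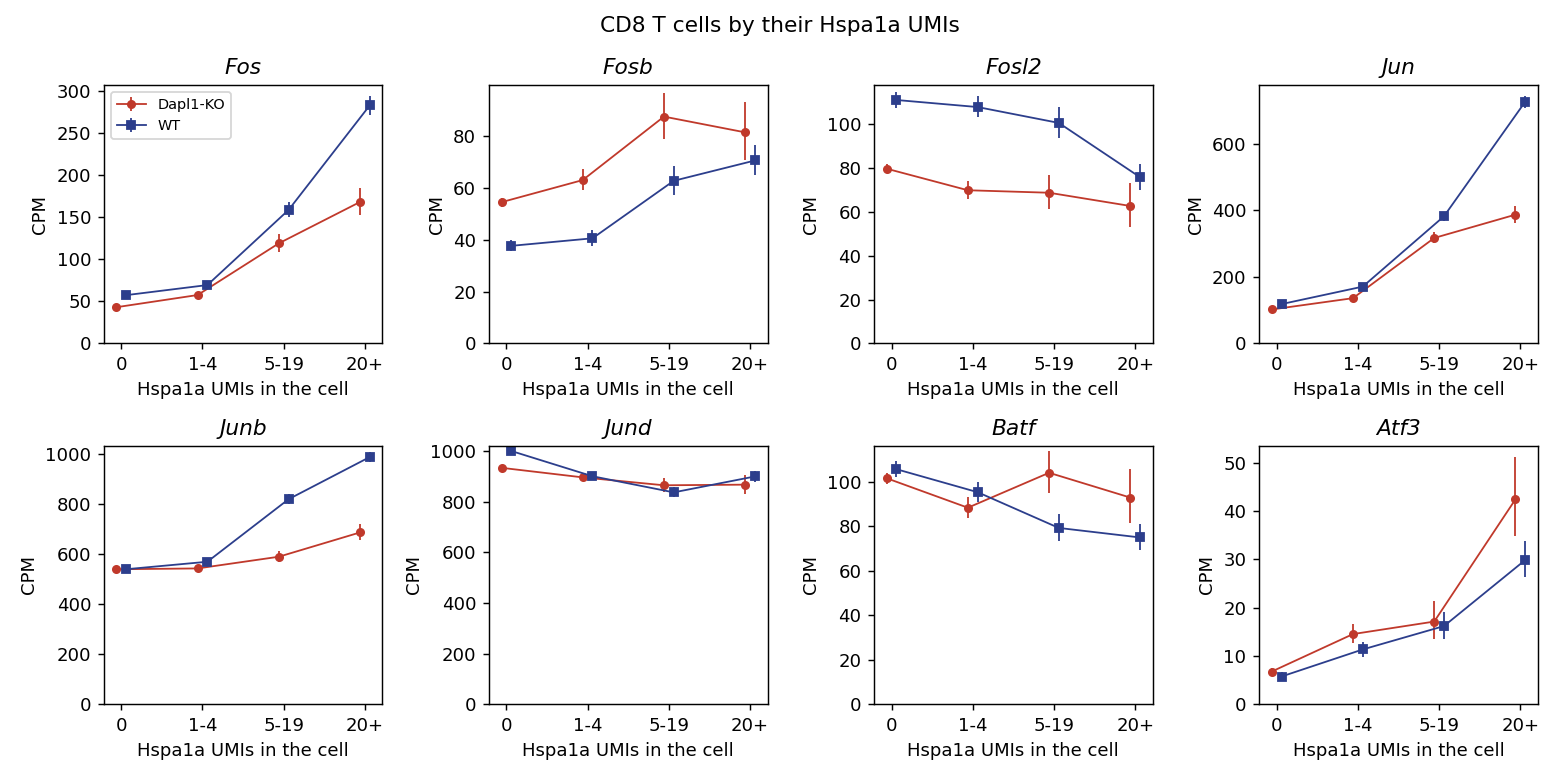
CPM of 8 members (y axes, linear from 0) in CD8 T cells grouped by the number of Hspa1a UMIs in the cell (x axis), with Dapl1-KO as red circles and WT as blue squares and bars for 95% Poisson intervals of counting error. Fos, Jun and Atf3 climb with Hspa1a in both libraries, Fosl2 declines, and Fosb lies higher in Dapl1-KO in every group.

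The same contrast within 7 narrower populations gave the same direction for several members. Jun was higher in Hspa1a-bearing cells in 14 of 14 readings, from 1.04 to 2.73 on the log2 scale. Fos was higher in 14 of 14, from 0.49 to 2.02, and Fosb in 14 of 14, from 0.31 to 1.42. Fosl2 was lower in 14 of 14, from −1.26 to −0.05. Jund lay between −0.59 and 0.21 and Batf between −1.12 and 0.86, with no shared direction. Across the 12 populations the correlation of log2 levels with Hspa1a was 0.90 in Dapl1-KO and 0.94 in WT for Fos and 0.69 in Dapl1-KO and 0.92 in WT for Jun, against −0.43 in Dapl1-KO and −0.54 in WT for Batf. These populations share a library, its depth and its free RNA.

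Over single cells the correlations were modest, and low counts per cell hold such values down. In CD8 T cells thinned to 3000 UMIs, cells with a Fos UMI held a mean of 1.28 Jun UMIs in Dapl1-KO and 2.33 in WT, against 0.419 in Dapl1-KO and 0.723 in WT for cells without one. The correlation of Jun with Hspa1a over cells was 0.26 in Dapl1-KO (5060 cells) and 0.49 in WT (4156 cells), and that of Jun with Batf −0.08 in Dapl1-KO and −0.07 in WT.

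Leaving out every cell with a Hspa1a UMI changed the genotype contrast in CD8 T cells member by member. It also changed the mix of states. Naive-like cells were 571 of the 4136 CD8 T cells left in Dapl1-KO and 328 of the 2033 left in WT. Before, they were 745 of 5208 in Dapl1-KO and 1123 of 4264 in WT. The part of this mix in the changes below was not tested. Jun, at 102 CPM in Dapl1-KO and 118 CPM in WT, differed by −0.21 and was no longer past the limit. Fos, at 43.0 CPM in Dapl1-KO and 57.4 CPM in WT, differed by −0.41. By state it differed by −1.29 in naive-like, −0.23 in effector cells without PD-1, 0.003 in cycling and 0.50 in PD-1 TIM-3 cells. Fosl2, at 79.5 CPM in Dapl1-KO and 111 CPM in WT, differed by −0.48. Junb was at 539.1 CPM in Dapl1-KO and 539.2 CPM in WT. Fosb, at 54.5 CPM in Dapl1-KO and 37.6 CPM in WT, differed by 0.53, more than in all CD8 T cells. Thus 1 of 7 measured members was higher against 12.7% of 4562 genes and 2 were lower against 6.60%. In the same kind of cells Fosb differed by 1.21 in CD4 conventional T cells, by 0.94 in NK cells and by −0.11 in regulatory T cells, while Jun was at 0.20 in CD4 conventional T cells, −0.39 in NK cells and −0.20 in regulatory T cells.

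**Figure D5:**
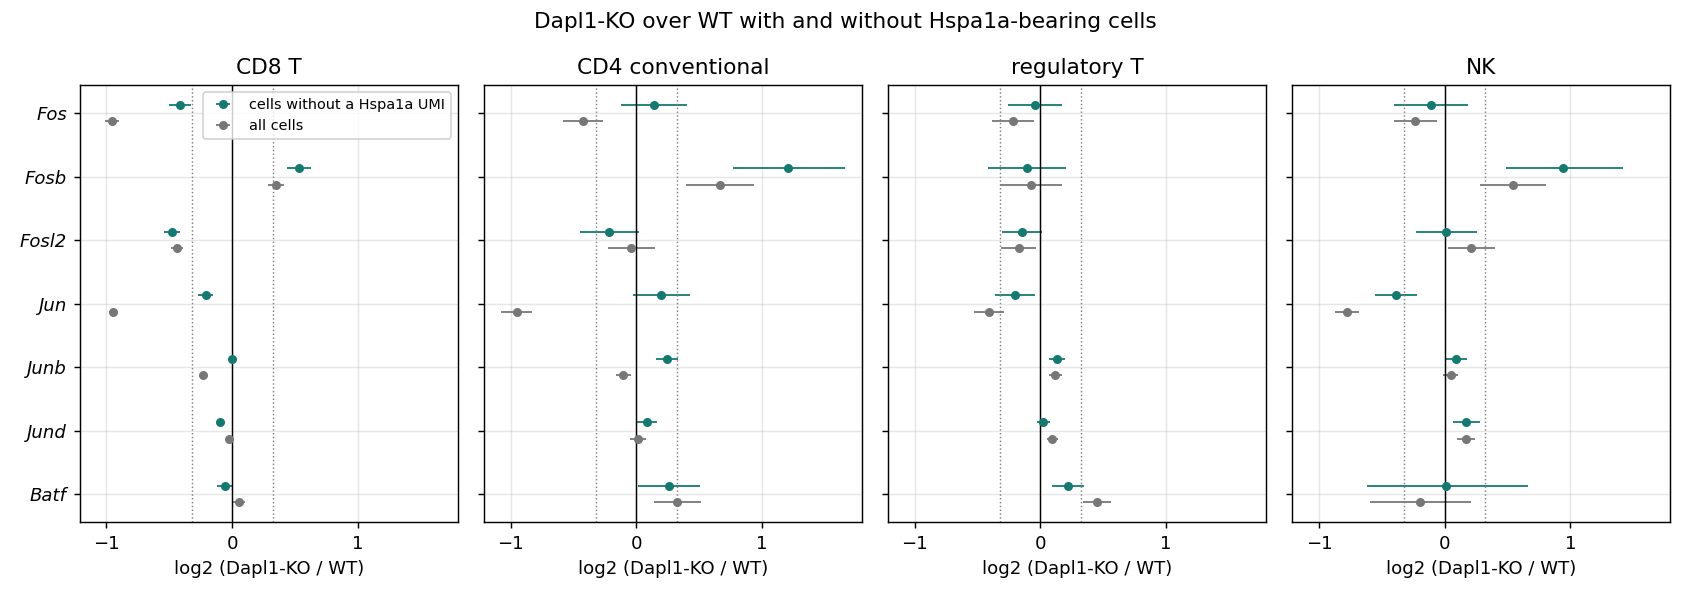
Log2 ratio of Dapl1-KO over WT CPM for 7 members (x axis) in 4 gated populations, in cells without a Hspa1a UMI in green above all cells of the gate in grey, with 95% counting intervals and dotted lines at the limit of 0.32. Jun moves toward 0 in all 4 panels when cells with Hspa1a are left out, and Fosb stays above 0 in CD8 T, CD4 conventional and NK cells. Leaving those cells out also changes the mix of CD8 T cell states.

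The sex-linked strata of the WT library give a reading within 1 library. CD8 T cells with a Y-linked UMI and no Xist had 113 CPM of Fos, 238 CPM of Jun, 720.3 CPM of Hspa1a and 28.6 CPM of Fosb. Those with Xist and no Y-linked UMI had 95.6 CPM of Fos, 236 CPM of Jun, 541 CPM of Hspa1a and 49.3 CPM of Fosb. Between Dapl1-KO and WT cells of the Y-linked kind the ratio was −1.24 for Fos, −1.07 for Jun, 0.99 for Fosb and 0.39 for Batf, so the directions of Fos, Jun and Fosb were the same as in all CD8 T cells. Naive-like cells were 514 of 3901 Y-linked CD8 T cells in Dapl1-KO and 194 of 629 in WT. The part of this mix was not tested. Within naive-like cells of the Y-linked kind, Fos had 136 CPM in Dapl1-KO and 390 CPM in WT. Jun had 359 CPM in Dapl1-KO and 656 CPM in WT there, and Fosb 57.4 CPM in Dapl1-KO and 46.0 CPM in WT. In regulatory T cells of the Y-linked kind, of which WT held 22, not all directions were kept. Batf had 228 CPM in Dapl1-KO and 285 CPM in WT, a ratio of −0.32 whose direction is opposite to that of all regulatory T cells. In those cells Fos was 1.32, Junb 1.09, Fosb 0.96 and Jun −0.02. Whether the Y-linked cells of the WT library come from a separate animal is not given.

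Other genes of the pathway were read from lists chosen with earlier results of these data known. Of 18 immediate early genes, 15 were measured in CD8 T cells, with 0 higher and 8 lower in Dapl1-KO, against 14.5% of all genes higher and 6.84% lower. Their median log2 ratio was −0.37, against 0.08 over all genes. Btg2, an antiproliferative gene, had 94.6 CPM in Dapl1-KO and 165 CPM in WT, and Zfp36, which promotes decay of cytokine mRNA, 68.1 CPM in Dapl1-KO and 109.7 CPM in WT. Myc, the growth regulator, had 18.6 CPM in Dapl1-KO and 30.6 CPM in WT, reaching the minimum only through WT, and Zfp36l1 57.6 CPM in Dapl1-KO and 87.7 CPM in WT. In NK cells the same list had 4 higher and 2 lower of 15, against 14.0% of all genes higher and 12.4% lower, with a median of 0.17 against 0.03 over all genes. Of 12 heat-shock genes, 11 were measured in CD8 T cells, with 1 higher (Chordc1) and 3 lower (Hspa1a, Hspa1b and Dnajb1) and a median of −0.03 against 0.08 over all genes. Dnajb1, a co-chaperone of HSP70, had 109.8 CPM in Dapl1-KO and 276 CPM in WT, and Chordc1, which binds HSP90, had 42.8 CPM in Dapl1-KO and 28.6 CPM in WT. In NK cells the list had 0 higher and 11 lower of 12, against the same 14.0% and 12.4%.

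Among partners and upstream kinases, 12 of 20 were measured in CD8 T cells, with 1 higher and 1 lower, against 14.5% of all genes higher and 6.84% lower, shares that hold for every list in these cells. Irf8, which binds DNA with BATF, had 279 CPM in Dapl1-KO and 163 CPM in WT, and Elk4, a serum response co-factor gene, 19.6 CPM in Dapl1-KO and 26.3 CPM in WT, so that it reached the minimum only through WT. Map3k1 and Elk3 stayed within the limit, at 0.30 each. Of 27 other basic leucine zipper genes, 14 were measured, with 1 higher and 2 lower. Crem, a cyclic AMP responsive regulator, had 135 CPM in Dapl1-KO and 93.3 CPM in WT, and Maf 30.0 CPM in Dapl1-KO and 40.2 CPM in WT. Cebpg was just past the limit at −0.32, and Nfe2l2 was within it at −0.26. Of 11 MAP kinase brakes, 8 were measured, with 1 higher and 1 lower. Dusp1, a phosphatase that inactivates MAP kinases, had 79.3 CPM in Dapl1-KO and 117 CPM in WT, and Spry2 21.2 CPM in Dapl1-KO and 14.9 CPM in WT, reaching the minimum only through Dapl1-KO. Dusp5 had a ratio of 0.32 and Dusp4 one of −0.31, both within the limit.

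Of 15 known AP-1 or BATF targets of T cells, 9 were measured in CD8 T cells, with 4 higher and 0 lower in Dapl1-KO, against 14.5% and 6.84% of all genes, and a median of 0.22 against 0.08 over all genes. Gzmb, a cytotoxic protease, had 1770.4 CPM in Dapl1-KO and 1035 CPM in WT. Ifng, the type II interferon, had 313 CPM in Dapl1-KO and 186 CPM in WT. Tnfrsf9 (4-1BB) had 391 CPM in Dapl1-KO and 257 CPM in WT, and Ctla4 285 CPM in Dapl1-KO and 218 CPM in WT. In CD4 conventional T cells 8 of 12 measured targets were higher and 0 lower, against 15.5% and 11.2% of all genes, with a median of 0.53 against 0.05, and in NK cells 1 was higher and 2 lower of 8, against 14.0% and 12.4%. Dapl1-KO held a larger share of cycling cells, 1695 of 5208 CD8 T cells against 999 of 4264 in WT. It held a smaller share of naive-like cells, 745 against 1123. The part of these shares in the values above was not tested.

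The genes whose levels were most like those of each member were found by correlating log2(CPM + 1) over the 24 population and library points, among 3733 genes reaching 50 CPM in at least 1 point. These points share libraries and depth, so the values are descriptions. Fos was most like Zfp36 (Pearson r of 0.96) and Socs3 (0.96), Jun like Map3k8 (0.93) and Atp1b1 (0.92), and Junb like Ier5 (0.93) and Nr4a1 (0.92). Batf was most like Ctla4 (0.94) and Hacd3 (0.92), and Atf3 like Tgm2 (0.93) and Card19 (0.93). The nearest genes were less close for Fosb (Kdm6b, 0.86, and Itgb1, 0.81), Jund (Stk24, 0.80, and Erlec1, 0.74) and Fosl2 (Irs2, 0.76, and Ccng2, 0.72). Batf3, below the minimum in all 12 populations compared, was nearest to Ik (0.76) and Kcmf1 (0.70). The correlation with Hspa1a over the same points was 0.81 for Fos, 0.81 for Jun and 0.72 for Junb, with 0.32 for Fosb and −0.40 for Batf. Fosb and Hspa1a differed between the libraries in opposite directions, and over the 12 populations of each library the correlation for Fosb was 0.71 in Dapl1-KO and 0.83 in WT.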

How the data were processed

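The deposited values were whole-number counts of unique molecular identifiers (UMIs) per gene and barcode, with no normalization, as the authors supplied them; per the labels, libraries were 10x 3′ version 3, with Cell Ranger (version 5.0.0) and the builds mm10 and GRCm38 listed in the submitters' processing notes. Barcodes found in both libraries kept the copy with at least 2 times the UMIs of the other, and 21 unclear ones were dropped. Cells needed 500 genes and at most 10% mitochondrial counts. Scrublet (scanpy 1.11.5) marked 0 cells in either library by its automatic threshold, so the highest scores at a rate of 0.8% per 1000 cells were removed, 1058 Dapl1-KO and 873 WT cells. Populations were gated on marker UMIs (the full marker set of the naive-like gates is not reported here) and counts were summed per population and library, giving CPM with exact Poisson and conditional binomial 95% intervals (scipy 1.17.1); a count of 0 was given a floor of 3 counts in ratios. Shares of cells used counts thinned to 3000 UMIs per cell. On counts simulated for CD8 T cells over 4416 genes, 100% of 200 changed genes passed the limit and 94.6% of intervals held the simulated ratio. That checks the calculation and not variation between animals, which 1 library per genotype cannot show. The members, gene lists and gates were chosen with earlier results of these data known. Named genes are the 9 members, Hspa1a and Hspa1b, the 2 genes most like each member and, from each list, the 4 with the largest log2 ratio in CD8 T cells; Dapl1, C1qb and the melanocytic genes were added as checks. Alternatives to the copy rule, filters, doublets, gates, scaling, limit and cell mix were tried.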

Additional observations from a re-analysis of the deposited data

Results flagged for a closer look

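Some members differed between the libraries in opposite directions in different populations. None of these differences was tested, since each genotype has 1 library. The log2 ratio of Dapl1-KO over WT for Fos was 0.43 in PD-1 TIM-3 CD8 T cells, while it was −0.51 in cycling, −0.37 in progenitor-like, −0.41 in PD-1 single, −1.16 in naive-like and −0.68 in effector CD8 T cells without PD-1, and −0.48 in naive-like CD4 cells. Batf was 0.36 in granzyme D to G CD8 T cells and 0.45 in regulatory T cells, but −0.36 in naive-like CD8 T cells. Atf3 was 1.13 in progenitor-like CD8 T cells, at 25.2 CPM in Dapl1-KO and 11.5 CPM in WT. There 4 dendritic markers summed to 523 CPM in Dapl1-KO and 61.4 CPM in WT, and their part was not tested. Atf3 was −0.61 in naive-like CD8 T cells, at 14.1 CPM in Dapl1-KO and 21.6 CPM in WT. In effector CD8 T cells without PD-1 it was −0.55, at 17.8 CPM in Dapl1-KO and 26.0 CPM in WT. In each of these T cell states Atf3 reached the minimum only in the library where it was higher, so its opposite directions there are no support. It was −0.77 in monocyte or macrophage-like cells.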

How the results depend on the processing

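No paired analysis was possible because each genotype has 1 library. The counts of members past the limit moved as follows, and the cause was not tested. Shares of all genes stand above for the reported setting but are not given for most alternatives. In regulatory T cells the count was 2, but 1 with gates that need 2 UMIs, 0 with gates on thinned cells, 1 with a mean over cells, 0 in cells without a Hspa1a UMI and 0 at a limit of 1.5-fold. In CD4 conventional T cells it was 4, but 1 in cells without a Hspa1a UMI and 2 at 1.5-fold. In CD8 T cells it was 4 and in NK cells 2, but 2 in CD8 T cells and 1 in NK cells at 1.5-fold, where fewer genes can pass. Fosl2 in CD8 T cells had a log2 ratio of 0.018 with both copies of shared barcodes dropped, against −0.44 as reported. Counts under the other alternatives were within 1.5 times, although different members can make them up: in regulatory T cells with Y-linked UMIs the 3 past the limit were Fos, Fosb and Junb, in place of Batf and Jun. Over all settings tried, the log2 ratio in CD8 T cells stayed between −1.36 and −0.41 for Fos, between −1.17 and −0.21 for Jun, and between 0.24 and 0.99 for Fosb. Leaving out melanocytic cells, weighting 7 CD8 states equally and leaving out cycling cells were chosen after seeing the data. The restriction to cells with Y-linked UMIs gave no value for NK cells, of which 10 remained in WT. Batf3 was under the minimum level in the 12 populations compared, and Atf3 in several T cell states, so neither was counted there.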
